A study of Homo sapiens with 16 samples.

Results

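HEK293T cells that carried an H2A lentivector were treated with 2.5 µM pinometostat for 24 h, and their transcriptome was compared with that of the same line given DMSO. All 4 pinometostat libraries and all 4 DMSO libraries of H2A cells were taken by their labels, which makes 8 of the 16 RNA-seq libraries of the study. HEK293T is a human embryonic kidney line that expresses the SV40 large T antigen. Pinometostat is a selective inhibitor of DOT1L. The remaining libraries came from H2A cells given 1 µM JQ1, an inhibitor of BET bromodomain proteins, for 3 h (n = 4), and from cells whose lentivector carried H2A(E92K), a substitution in the acidic patch of the nucleosome, with DMSO in the title and no treatment in the treatment label (n = 4). They enter below only where pinometostat is set directly against them.

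The DMSO libraries have no treatment time in their labels, so the compound, the length of culture and the handling of the dishes cannot be told apart. The sample labels give the pinometostat dose in µM, and the shared protocol text writes the same figure in mM; the sample labels were followed. All groups compared carry a lentivector that expresses H2A or its variant, and no cells without a vector were analysed here. The labels do not say that the replicates came from separate cultures, and p-values then measure only the spread between these libraries, which may be technical.

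DOT1L methylates a lysine on the globular core of histone H3 over the bodies of transcribed genes, and it works beside MLL-fusion partners and elongation factors and is stimulated by ubiquitin on histone H2B. Its best known targets are the HOXA cluster and MEIS1 in MLL-rearranged leukaemia, where its inhibition lowers their transcription over days. Much of what is described below concerns the machinery of protein synthesis. Ribosomal protein mRNAs and several translation factor mRNAs begin with a C followed by a pyrimidine run, the 5′ terminal oligopyrimidine (TOP) motif, through which the kinase mTOR controls their translation and stability. ATF4 drives genes for amino acid supply and tRNA charging, and ATF6 and XBP1 drive genes for the chaperones of the endoplasmic reticulum (ER).

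Differential expression was tested for the 16721 genes that passed a low-count filter, with edgeR's quasi-likelihood test and Benjamini-Hochberg adjustment over all of them, and a gene is called where its adjusted p was below 0.05. Fold changes are log2 values of pinometostat over DMSO, given with their standard error. Of the genes tested, 4610 (27.6%) were called, 2088 higher (12.5%) and 2522 lower (15.1%) with pinometostat. The shares of 12.5% and 15.1% are the background for the list counts below. Alternative fits had fewer calls over all genes. With a trend in GC content removed, 1573 were higher and 1567 lower, and with all 16 libraries fitted together 626 were higher and 793 lower. In 4544 genes (27.2%) the pinometostat and DMSO libraries did not overlap. Most differences were small: the median log2 fold change of the genes called was 0.48 for those that rose and -0.40 for those that fell, and 210 rises and 22 falls reached 1 on the log2 scale. The split between directions depended on scaling. Of the genes called, 45.3% were higher with the TMM scaling used throughout, 58.9% with upper quartile scaling and 21.9% on the authors' TPM scale, where the median of all genes lay at 0.002, 0.06 and -0.09.

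**Figure D1:**
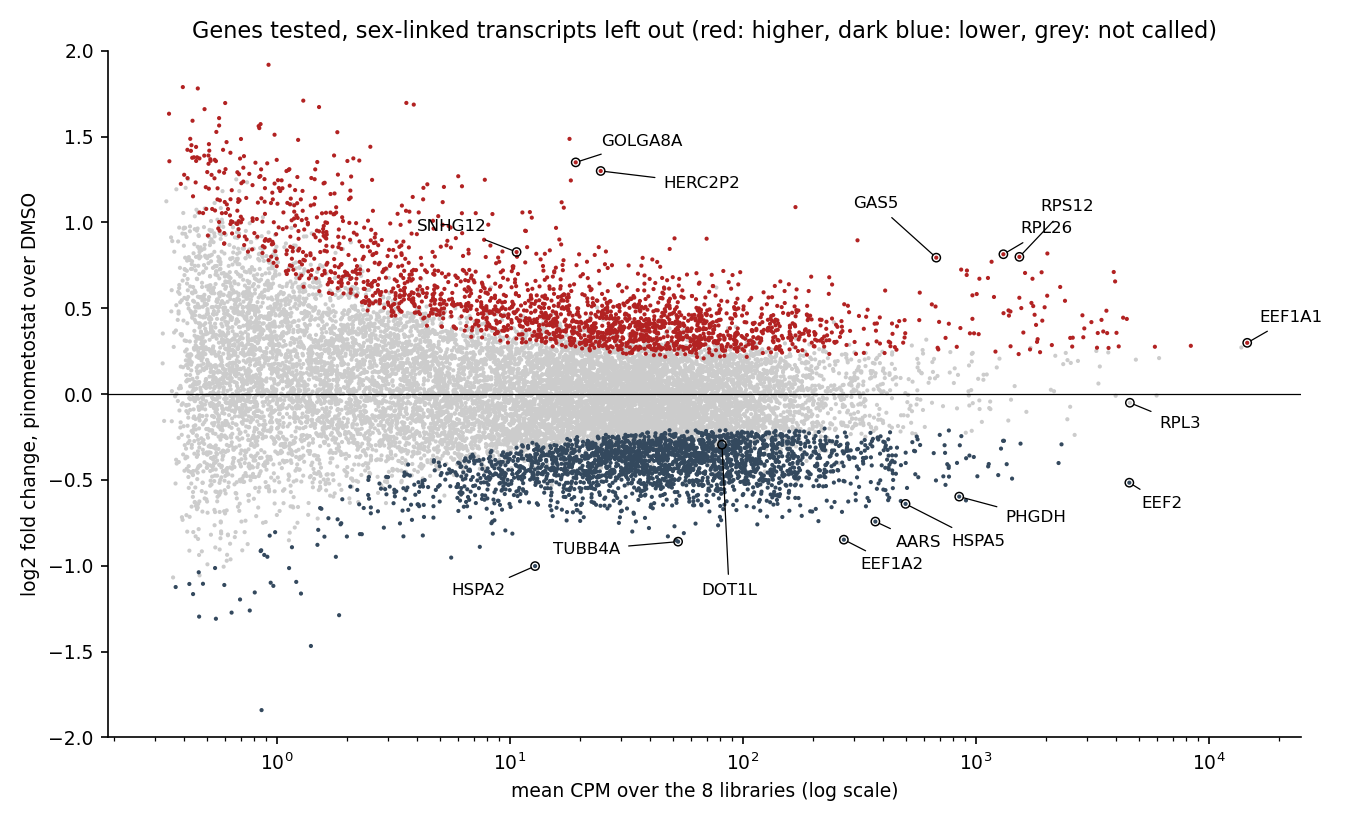
Each point is 1 tested gene, with its mean level over the 8 libraries in CPM on a log axis and its log2 fold change of pinometostat over DMSO on the vertical axis. Red genes were called higher, dark blue genes lower and grey genes were not called; the high-level genes at the right include ribosomal protein genes above 0 and EEF2 at -0.52 below it.

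Depth and quality also moved with the groups. The pinometostat libraries held 20540965 to 22873652 counts and the DMSO libraries 24003378 to 27599686, with no overlap. Transcripts of the mitochondrial genome took 4.43% to 5.04% of counts with pinometostat and 3.66% to 4.02% with DMSO. DMSO replicate 1 was the highest DMSO library in 1662 of the 2522 genes that fell and the lowest in 1239 of the 2088 that rose. The part of these differences in the results was not tested. As a check of the labelled kidney origin, 14 of 17 kidney developmental markers were at 1 CPM or more. So were 19 of 20 mesenchymal, 9 of 18 neuronal and 8 of 16 epithelial markers, against 1 of 12 blood cell markers. The check therefore sets these cells apart from blood and not from the other types. The blood cell markers summed to 3.80 to 5.12 CPM with pinometostat and 4.21 to 5.44 CPM with DMSO. HBB, the beta chain of haemoglobin, was at 0 in all 8 libraries. The kidney markers themselves summed to 364 to 398 CPM with pinometostat and 451 to 492 CPM with DMSO, and 7 of the 15 tested fell. Other marker lists were also lower: mesenchymal markers summed to 903 to 1062 CPM with pinometostat and 1176 to 1354 CPM with DMSO (8 of 20 fell and 2 rose, with 4 falls without pinometostat replicate 1 or 4), and epithelial markers to 119 to 126 CPM with pinometostat and 141 to 167 CPM with DMSO (3 of 9 fell). Neuronal markers overlapped, at 235 to 321 CPM with pinometostat and 309.6 to 459 CPM with DMSO. Of the 12 tested, 2 fell (16.7%, near the 15.1% of all genes). With 1 library left out 0 to 4 neuronal markers fell, the 0 without pinometostat replicate 3 or DMSO replicate 1 and the 4 without DMSO replicate 4. Among the kidney markers GATA3, a transcription factor of the nephric duct, had 21.5, 17.4, 17.9 and 18.2 CPM with pinometostat against 32.4, 27.9, 22.5 and 24.4 CPM with DMSO (-0.52 ± 0.12, adjusted p = 0.00539). Every pinometostat library was below every DMSO library, but the GATA3 call was lost when all 16 libraries were fitted together (adjusted p = 0.063). The number of kidney markers called was 0 in that fit and 2 with a trend in GC content removed. It was 2 without pinometostat replicate 1, 3 without pinometostat replicate 3, and 4 without DMSO replicate 1 or 2. In bulk RNA, fewer cells of a type and less RNA per cell cannot be told apart.

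Among the lists examined, the cytosolic ribosomal protein genes had the largest share of members called higher (79.5%). The snoRNA host genes had the larger median log2 fold change (0.54, against 0.40). The start sites of 4 ribosomal protein genes that rose, and of EEF1A1, EEF2, TPT1 and SNHG12 for comparison, are shown because all 8 begin with a C and a pyrimidine run. Each line gives 10 bases before and 20 bases from the annotated start, from RefSeq on GRCh38.p14, 5′ to 3′ on the gene's own strand, with the pyrimidine run in capitals.
RPL26: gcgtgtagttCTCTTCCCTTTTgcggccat
RPS12: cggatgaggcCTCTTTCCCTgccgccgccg
RPS27: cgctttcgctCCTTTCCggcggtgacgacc
RPS21: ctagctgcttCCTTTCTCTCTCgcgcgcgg
EEF1A1: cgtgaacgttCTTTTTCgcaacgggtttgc
EEF2: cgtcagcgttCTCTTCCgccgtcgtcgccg
TPT1: ctgagtcggcCTTTTCCgcccgctcccccc
SNHG12: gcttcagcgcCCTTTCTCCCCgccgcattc
The windows lie at chr17:8383174-8383203 on the minus strand for RPL26, chr6:132814559-132814588 on the plus strand for RPS12, chr1:153990752-153990781 on the plus strand for RPS27 and chr20:62387093-62387122 on the plus strand for RPS21. Those of the comparison genes lie at chr6:73521013-73521042 (minus, EEF1A1), chr19:3985444-3985473 (minus, EEF2), chr13:45341164-45341193 (minus, TPT1) and chr1:28581854-28581883 (minus, SNHG12).

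Of the 83 cytosolic ribosomal protein genes, all of which passed the low-count filter, 66 rose and 0 fell, against 12.5% and 15.1% of all genes. Their median log2 fold change was 0.40. The 33 genes of the small subunit had 29 rises and a median of 0.48, and the 50 genes of the large subunit had 37 rises and a median of 0.36. Together their mRNAs took 19.4% to 20.5% of all counts in the pinometostat libraries (19.8% ± 0.523, SD, n = 4) and 13.8% to 16.9% in the DMSO libraries (15.7% ± 1.34, SD, n = 4). The number of rises was 63 after a trend with GC content was removed from each library (GC removal below, a setting chosen after seeing the data), 24 when all 16 libraries were fitted together, and 50 to 67 when 1 library at a time was left out, with the lowest count without DMSO replicate 2. DMSO replicate 1 was the lowest DMSO library in 82 of the 83 genes, and 54 rose without it. Pinometostat replicate 3 was the highest of its group in 79. Many of these genes have processed pseudogenes, and reads shared with them could be counted either way.

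RPL26 (ENSG00000161970, chromosome 17, 8377520 to 8383213), a protein of the large subunit, had 1715, 1732, 1718 and 1537 CPM in the pinometostat libraries against 737, 976, 1053 and 1044 CPM in the DMSO libraries. All 4 pinometostat libraries were above all 4 DMSO libraries, and the means were 1675 ± 92.8 and 953 ± 148 CPM (SD, n = 4 each; log2 fold change 0.81 ± 0.11, 1.76-fold, adjusted p = 0.000552). RPS12, a small subunit protein, had 1874, 1883, 2097 and 1967 CPM with pinometostat against 888, 1081, 1206 and 1318 CPM with DMSO (0.80 ± 0.11, adjusted p = 0.000552). RPS15A had the largest change of the list, with 2657, 2541, 2707 and 2457 CPM with pinometostat against 1208, 1357, 1666 and 1642 CPM with DMSO (0.82 ± 0.10). In both genes the 2 groups were far apart, and DMSO replicate 1 was the lowest of all 8 libraries.

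RPS27 had 1068, 1151, 1181 and 1162 CPM with pinometostat against 575, 719, 708 and 768 CPM with DMSO (0.72 ± 0.09, adjusted p = 0.000552). RPS21 had 1093, 1092, 1171 and 1164 CPM with pinometostat against 568, 685, 779 and 762 CPM with DMSO (0.69 ± 0.10, adjusted p = 0.00063). The groups did not overlap in either gene, and DMSO replicate 1 was again the lowest. The rise was not shared by every ribosomal protein gene: RPL3, a large subunit protein near the peptidyl transferase centre, had 4127, 4169, 5065 and 4669 CPM with pinometostat against 4415, 4633, 5107 and 4519 CPM with DMSO, and its groups overlapped (-0.05 ± 0.09, adjusted p = 0.72). The sign of RPL3 turned with upper quartile scaling (0.002) and after GC removal (0.07). Among the other 16 members that were not called were RPL13 at -0.07, RPSA and RPS2.

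A promoter window was found for 67 ribosomal protein genes, and 52 of them (77.6%) had a C within 2 bases of the annotated start that opened a run of at least 5 pyrimidines. The same pattern was found in 1945 of the 12006 tested genes with a window (16.2%). Of the 52 ribosomal protein genes with it, 44 rose and 0 fell. Of all 83 ribosomal protein genes, with or without a window, 66 rose. With the ribosomal protein genes left out, 1893 genes had the pattern, of which 244 rose and 364 fell. Their share of rises was near the 12.5% of all genes tested, and their share of falls was above the 15.1%. Whether the pyrimidine run has a part in the rises was not tested. The letters describe the annotated start and not the start used in these cells.

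**Figure D2:**
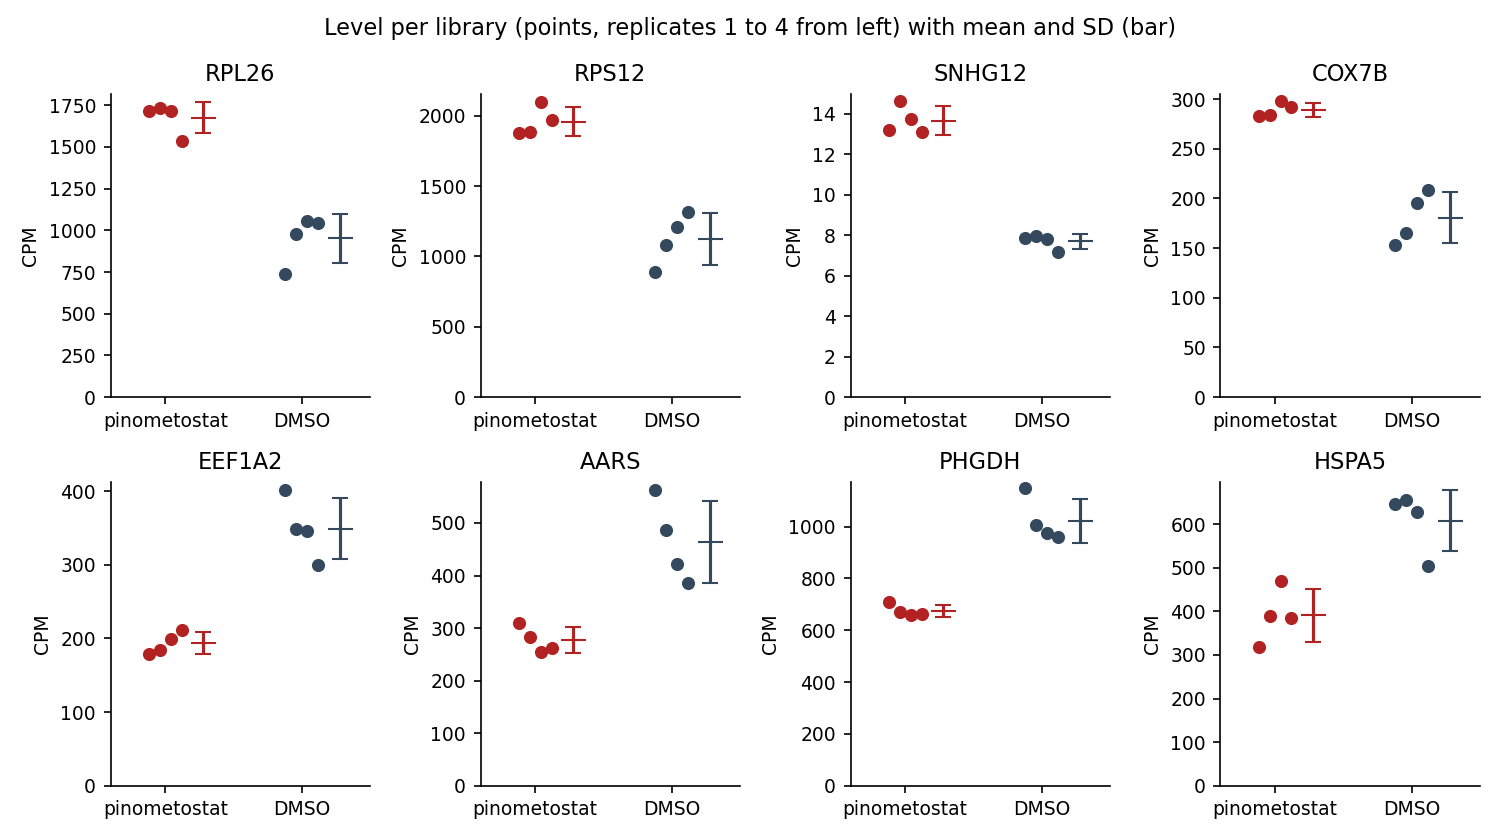
Levels of 8 genes in CPM, with 1 point per library and the mean ± SD beside the points; pinometostat libraries are on the left of each panel and DMSO libraries on the right. In the upper row (RPL26, RPS12, SNHG12, COX7B) every pinometostat library lies above every DMSO library, and in the lower row (EEF1A2, AARS, PHGDH, HSPA5) every one lies below.

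Among 21 elongation factors and associated proteins, 4 rose and 8 fell, with a median log2 fold change of -0.06. The list also holds the synthetase VARS and the termination proteins GSPT1, GSPT2 and ETF1, without which 4 rose and 6 fell among 17. In the whole list the number that fell was 4 to 8 when 1 library was left out, with 4 without pinometostat replicate 1 or 4 and 5 without pinometostat replicate 2 or DMSO replicate 1 or 4. EEF1A2 (ENSG00000101210, chromosome 20, 63488013 to 63499315) and EEF1A1 encode the eEF1A isoforms that bring aminoacyl-tRNA to the ribosome, EEF1A2 being the form of neurons and muscle and of some tumours. EEF1A2 had 179, 185, 199.6 and 212 CPM in the pinometostat libraries against 401, 348, 347 and 300.3 CPM in the DMSO libraries. Its highest pinometostat library was well below its lowest DMSO library, and the means were 194 ± 14.7 and 349 ± 41.4 CPM (SD, n = 4 each; -0.85 ± 0.09, 0.556-fold, adjusted p = 0.000533). EEF1A1 had 15401, 15348, 17856 and 15957 CPM with pinometostat against 11599, 12394, 14372 and 14123 CPM with DMSO (0.30 ± 0.10, adjusted p = 0.036). Its groups did not overlap either, but this call was lost when all 16 libraries were fitted (adjusted p = 0.233), after GC removal (0.0737), on the TPM scale (0.0594), and without pinometostat replicate 2, 3 or 4 or DMSO replicate 1 or 2.

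In TPM, which is per gene length, EEF1A2 averaged 277 ± 19.9 with pinometostat and 546 ± 87.7 with DMSO, and EEF1A1 averaged 7777 ± 194 with pinometostat and 6868 ± 396 with DMSO (SD, n = 4 each). EEF1A2 made up 3.21% to 3.79% of the summed eEF1A level in pinometostat libraries and 5.93% to 9.31% in DMSO libraries, without overlap. EEF2, the translocase of the ribosome, fell although its start carries a pyrimidine run like that of RPS27: it had 3501, 3928, 3501 and 4093 CPM with pinometostat against 6378, 5341, 5299 and 4467 CPM with DMSO (-0.52 ± 0.11, adjusted p = 0.00342). EEF1B2, the exchange factor that reloads eEF1A with GTP, rose, with 788, 716, 867 and 786 CPM with pinometostat against 459.7, 523, 589 and 646 CPM with DMSO (0.51 ± 0.10, adjusted p = 0.0029). The groups were separate in both genes, and in opposite directions. TPT1, a growth-associated protein with a TOP mRNA, had 2080, 1945, 2294 and 1979 CPM with pinometostat against 1172, 1353, 1637 and 1655 CPM with DMSO (0.51 ± 0.11, adjusted p = 0.00389). It was 1 of 7 rises (28%), against 3 falls (12%), among 25 further TOP-class RNAs (median 0.16, and 11 rises without DMSO replicate 4). Of the 7, GAS5, SNHG1, ZFAS1 and EPB41L4A-AS1 are non-coding snoRNA host genes, which leaves 3 rises and 3 falls among 21 protein-coding members. Those counts are near the shares of all genes, 12.5% higher and 15.1% lower.

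Initiation factors and their regulators had 9 falls (23.1%, against 15.1% of all genes) and 2 rises (5.13%, against 12.5%) among 39. The counts were 8 and 0 after GC removal, and the median was -0.03, or 0.03 with upper quartile scaling. EIF3A, the scaffold of the eIF3 complex, had a log2 fold change of -0.60 ± 0.11 (adjusted p = 0.00153) and EIF5B, which joins the subunits, -0.60 ± 0.09 (adjusted p = 0.000646), while EIF3E, another eIF3 subunit, rose by 0.41 ± 0.09 (adjusted p = 0.00452). EIF5B was no longer called with all 16 libraries (adjusted p = 0.40). Without DMSO replicate 4 the rises numbered 9 in place of 2. Nucleolar ribosome biogenesis factors had 18 falls (31.0%, against 15.1% of all genes) and 4 rises (6.9%, against 12.5%) among 58. The falls numbered 11 after GC removal and 5 with all 16 libraries. The rises numbered 9 without DMSO replicate 4, 2 without pinometostat replicate 2 or 4 or DMSO replicate 3, and 0 without each of the other libraries. NCL (nucleolin), an abundant nucleolar protein of rRNA processing, had 629, 636, 539 and 624 CPM with pinometostat against 1027, 751, 825 and 900.0 CPM with DMSO, without overlap (-0.53 ± 0.10, adjusted p = 0.00196).

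Host genes of small nucleolar RNAs, whose introns hold the guides of rRNA modification and several of whose spliced RNAs are also TOP-class, rose with the ribosomal proteins. Of 32 listed, 29 were matched by symbol and 28 passed the low-count filter. Of these 28, 21 rose and 0 fell, with a median log2 fold change of 0.54 against 0.002 for all genes. The count was 21 after GC removal, 12 with all 16 libraries and 17 to 23 with 1 library left out. SNHG12 had 13.2, 14.6, 13.7 and 13.1 CPM with pinometostat against 7.84, 7.96, 7.84 and 7.17 CPM with DMSO (0.83 ± 0.10, adjusted p = 0.000546). GAS5, named for its accumulation in growth-arrested cells, had 977, 784, 886 and 787 CPM with pinometostat against 392, 521, 572 and 495 CPM with DMSO (0.79 ± 0.11, adjusted p = 0.000626). Both were separated, and SNHG1 at 1.09 had the largest change of the list. Nonsense-mediated decay degrades many of these transcripts, including GAS5.

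RNAs known for retention in the nucleus or for retained introns moved the same way: 13 of the 21 that passed the low-count filter, from a list of 32, rose and 0 fell (median 0.48), 8 of them after GC removal and 3 with all 16 libraries. CLK1, a kinase of SR splicing factors whose transcript is kept in the nucleus with introns retained, had 51.9, 58.7, 56.6 and 49.0 CPM with pinometostat against 26.3, 32.4, 35.4 and 32.7 CPM with DMSO, without overlap (0.77 ± 0.10, adjusted p = 0.000552). MALAT1, an abundant nuclear speckle RNA, had 70.2, 80.1, 63.8 and 90.9 CPM with pinometostat against 121, 85.2, 67.4 and 59.7 CPM with DMSO, and the groups overlapped fully (-0.13 ± 0.17, adjusted p = 0.611). Its sign turned without DMSO replicate 1 (0.11) and with library quality weights (0.01). NEAT1, the scaffold of paraspeckles, had 78.3, 83.8, 62.5 and 83.3 CPM with pinometostat against 63.0, 64.7, 52.4 and 44.5 CPM with DMSO, an overlap of 1 pinometostat library with 2 DMSO libraries (0.46 ± 0.12, adjusted p = 0.0117), and was not called with all 16 libraries (adjusted p = 0.613) or on the TPM scale (adjusted p = 0.175). Of 27 SR-family splicing factors and their kinases, 8 rose and 1 fell (median 0.09), but after GC removal 3 rose and 3 fell and the median was -0.04, and on the TPM scale it was -0.03. The falls numbered 2 without DMSO replicate 1 and 3 without DMSO replicate 4.

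Among called genes with a mean of at least 5 CPM and no overlap between groups, the 15 largest rises ran from 1.05 to 1.49 on the log2 scale, and 7 of the 15 were protein-coding. They were transcripts of low level, with means of 5.21 to 24.5 CPM. GOLGA8A, a golgin of a duplicated family on chromosome 15, had 25.5, 33.7, 20.2 and 30.7 CPM with pinometostat against 8.67, 14.5, 13.1 and 6.90 CPM with DMSO (1.35 ± 0.20, 2.55-fold, adjusted p = 0.000652). RSRP1, a small arginine- and serine-rich protein, had 22.4, 31.0, 22.2 and 27.1 CPM with pinometostat against 8.59, 14.6, 13.1 and 7.09 CPM with DMSO (1.24 ± 0.18, adjusted p = 0.000652). The 2 genes shared an order of libraries, with DMSO replicates 2 and 3 above replicates 1 and 4. In 14 of the 15 genes DMSO replicate 2 was the highest DMSO library and in 13 DMSO replicate 4 was the lowest. GOLGA8A and its near copy GOLGA8B (1.25), and the HERC2 pseudogene HERC2P2 share sequence with other copies, and their counts are uncertain. The rest of the 15 were AL035425.4, SEC31B, AC083843.3, ZNF331, ANKRD19P, AHSA2P, AL133325.3, TTLL3, AL390728.4, AC008560.1 and PRSS30P.

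Nuclear-encoded subunits of the respiratory chain and ATP synthase rose in 34 of 77 cases and fell in 4, with a median of 0.24. The rises numbered 32 after GC removal, 9 with all 16 libraries and 25 to 42 with 1 library left out. COX7B, a small subunit of cytochrome c oxidase, had 283, 284, 298 and 292 CPM with pinometostat against 154, 165, 195 and 208 CPM with DMSO (0.68 ± 0.09, adjusted p = 0.000586). NDUFA4, also a small subunit of that enzyme, had 282, 288, 311 and 296 CPM with pinometostat against 158, 176, 213 and 209 CPM with DMSO (0.64 ± 0.10, adjusted p = 0.000687). SDHA, the flavoprotein of succinate dehydrogenase, went the other way, with 169, 172, 183 and 184 CPM with pinometostat against 261, 248, 249.5 and 229 CPM with DMSO (-0.48 ± 0.08, adjusted p = 0.000853). None of the 3 genes had overlapping groups, and the other falls included NDUFS7 and NDUFV1, core subunits of complex I.

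Of the 13 mRNAs of the mitochondrial genome, 8 rose and 0 fell (median 0.27), but the count was 3 after GC removal, 0 with all 16 libraries and 3 to 9 with 1 library left out, with 3 without pinometostat replicate 3 or DMSO replicate 2 or 3, 4 without pinometostat replicate 2 or 4, and 5 without DMSO replicate 1. MT-ND4L, a complex I subunit, had 1079, 1124, 1267 and 1161 CPM with pinometostat against 784, 647, 772 and 906 CPM with DMSO; the groups were separate (0.58 ± 0.10, adjusted p = 0.00132), and the adjusted p was 0.387 with all 16 libraries, among which JQ1 replicate 1 had 16.5% of its counts from the mitochondrial genome. Mitochondrial ribosomal proteins had 16 rises (20.5%, against 12.5% of all genes) and 4 falls (5.13%, against 15.1%) among 78 (median 0.17). Their count of rises depended on single libraries. It was 39 without DMSO replicate 4, 8 without pinometostat replicate 3, 9 without DMSO replicate 1 or 2 and 10 without pinometostat replicate 4.

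The cytosolic aminoacyl-tRNA synthetases, which load amino acids onto tRNAs, fell in 12 of 23 cases (52.2%) and rose in 0, with a median of -0.23, against 15.1% of all genes called lower. The count was 11 after GC removal, 6 with all 16 libraries, and 8 to 11 with 1 library left out. The mitochondrial synthetases had 3 falls among 17 (17.6%, near the 15.1% of all genes), and 1 without pinometostat replicate 2 or 3 or DMSO replicate 1. The promoter of AARS, the alanyl-tRNA synthetase (ENSG00000090861, chromosome 16, 70252295 to 70289543), is shown for its match to the C/EBP-ATF response element (CARE), the element through which ATF4 acts. The 200 bases before the RefSeq start lie at chr16:70289507-70289706 on the minus strand of GRCh38.p14, and the capitals mark the match, 187 to 180 bases before the start.
AARS: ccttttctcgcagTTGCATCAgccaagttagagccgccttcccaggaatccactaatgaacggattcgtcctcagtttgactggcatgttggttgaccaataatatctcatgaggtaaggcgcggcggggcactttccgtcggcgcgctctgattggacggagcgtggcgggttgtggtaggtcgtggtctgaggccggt

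AARS had 309.7, 284, 255 and 261 CPM in the pinometostat libraries against 562, 488, 421 and 385 CPM in the DMSO libraries. The highest pinometostat library was below the lowest DMSO library, and the means were 277 ± 24.9 and 464 ± 78.2 CPM (SD, n = 4 each; -0.74 ± 0.11, 0.598-fold, adjusted p = 0.000646). VARS, the valyl-tRNA synthetase, had 124, 112, 106 and 115 CPM with pinometostat against 207, 164, 157 and 162 CPM with DMSO (-0.59 ± 0.09, adjusted p = 0.000875). GARS, the glycyl-tRNA synthetase, had 234, 179, 171 and 158 CPM with pinometostat against 294, 256, 244 and 284 CPM with DMSO (-0.54 ± 0.11, adjusted p = 0.0032). WARS, the tryptophanyl-tRNA synthetase, changed by -0.52 ± 0.08 (adjusted p = 0.000826). The groups did not overlap in AARS, VARS or GARS, and in AARS and VARS the DMSO spread was widened by replicate 1, the highest of its group in both. Searched as TGATGNAA on either strand (TTNCATCA on the other), the CARE was found in 7 of 18 synthetase genes with a window (38.9%), of which 4 fell. It was found in 321 of all 12006 genes with a window (2.67%), of which 58 fell and 30 rose, with a median of -0.05. Of 27 ATF4 target genes with a window, 8 had it, and of these 1 fell and 0 rose. Whether the CARE has a part in the falls was not tested.

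Of 33 ATF4 target genes, 6 fell (18.2%, near the 15.1% of all genes called lower) and 0 rose, with a median of -0.20. ATF4 itself, the activator, had 916, 932, 1133 and 1028 CPM with pinometostat against 1141, 1135, 1098 and 1112 CPM with DMSO, an overlap of 1 pinometostat library (-0.16 ± 0.08, adjusted p = 0.164); it was called lower with scaling by library size alone (adjusted p = 0.0457) and on the TPM scale (0.00893). ATF5, a related factor, had 6.42, 7.17, 5.99 and 8.37 CPM with pinometostat against 14.4, 12.8, 11.5 and 9.80 CPM with DMSO, without overlap (-0.79 ± 0.14, adjusted p = 0.00154). TRIB3, a pseudokinase induced by ATF4, had 44.5, 25.1, 24.7 and 23.1 CPM with pinometostat against 38.8, 39.3, 35.4 and 34.9 CPM with DMSO (-0.34 ± 0.16, adjusted p = 0.13). In TRIB3 pinometostat replicate 1 stood above every DMSO library and the other 3 below them all. That library was the highest of its group in 29 of the 33 genes, and without it 17 were called lower and TRIB3 was among them (-0.61, adjusted p = 0.00253); TRIB3 was also called with library quality weights (0.00808) and with no low-count filter (0.00779).

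Enzymes of serine, proline and one-carbon metabolism had 14 falls and 1 rise among 27 (median -0.24), with 12 falls after GC removal, 4 with all 16 libraries and 7 to 12 with 1 library left out (7 without DMSO replicate 1 or pinometostat replicate 4, 8 without DMSO replicate 2 or pinometostat replicate 1 or 3, and 9 without pinometostat replicate 2). The rises numbered 2 without pinometostat replicate 4 and 5 without DMSO replicate 4. PHGDH, which commits glycolytic carbon to serine, had 709, 672, 658 and 664 CPM with pinometostat against 1148, 1006, 976 and 960.5 CPM with DMSO, clearly apart (-0.60 ± 0.08, adjusted p = 0.000563). GLDC, of the glycine cleavage system, changed by -0.50 ± 0.09 (adjusted p = 0.00153), and MTHFD2L, a mitochondrial folate enzyme, was the rise, at 0.52 ± 0.12 (adjusted p = 0.00541). Among 22 amino acid transporters, 8 fell and 0 rose (median -0.24), with 3 falls after GC removal. SLC7A5, the large neutral amino acid transporter LAT1, had 299.9, 205, 211 and 176 CPM with pinometostat against 395, 390.0, 292 and 299 CPM with DMSO; the highest pinometostat library overlapped the DMSO range (-0.63 ± 0.14, adjusted p = 0.00568), and the call was lost after GC removal (adjusted p = 0.0509).

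Chaperones and folding factors of the ER also fell, in 16 of 34 genes with 1 rise (ERO1B, an oxidoreductin) and a median of -0.24. The falls numbered 16 after GC removal, 7 with all 16 libraries and 12 to 17 with 1 library left out. The promoter of HSPA5, which encodes BiP, the main ER chaperone (ENSG00000044574, chromosome 9, 125234853 to 125241330), is shown for its exact match to the ER stress element (ERSE). The 150 bases before the RefSeq start lie at chr9:125241344-125241493 on the minus strand of GRCh38.p14. The capitals mark the match, 66 to 48 bases before the start, and near matches were not searched for or marked.
HSPA5: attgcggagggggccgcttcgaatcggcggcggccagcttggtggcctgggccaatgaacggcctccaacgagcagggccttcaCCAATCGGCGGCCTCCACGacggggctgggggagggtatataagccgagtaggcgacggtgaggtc

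HSPA5 had 318, 389, 469 and 386 CPM in the pinometostat libraries against 646, 655, 629 and 504 CPM in the DMSO libraries. No library of one group reached the range of the other, and the means were 391 ± 61.9 and 608 ± 70.5 CPM (SD, n = 4 each; -0.64 ± 0.11, adjusted p = 0.00152). HYOU1, the exchange factor of BiP, had 92.7, 99.97, 111 and 95.7 CPM with pinometostat against 164, 168, 149 and 133 CPM with DMSO, again apart (-0.62 ± 0.09, adjusted p = 0.000646), but was not called with all 16 libraries (adjusted p = 0.0976). CALR, the calcium-binding lectin chaperone calreticulin, changed by -0.41 ± 0.09 (adjusted p = 0.00461). Searched as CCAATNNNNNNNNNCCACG on either strand (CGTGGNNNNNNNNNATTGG on the other), the ERSE was found in 9 of 30 windows of the list and in 16 of 12006 overall (0.133%). Of those 9 genes, 4 fell and 1 rose, with a median log2 fold change of -0.29. In the cytosol, 6 of 20 heat shock proteins and their regulators fell (30%, against 15.1% of all genes) and 0 rose. BAG3, a cochaperone of HSP70, had 20.6, 23.9, 24.5 and 24.8 CPM with pinometostat against 39.7, 34.4, 37.2 and 33.5 CPM with DMSO, without overlap (-0.63 ± 0.09, adjusted p = 0.000652).

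**Figure D3:**
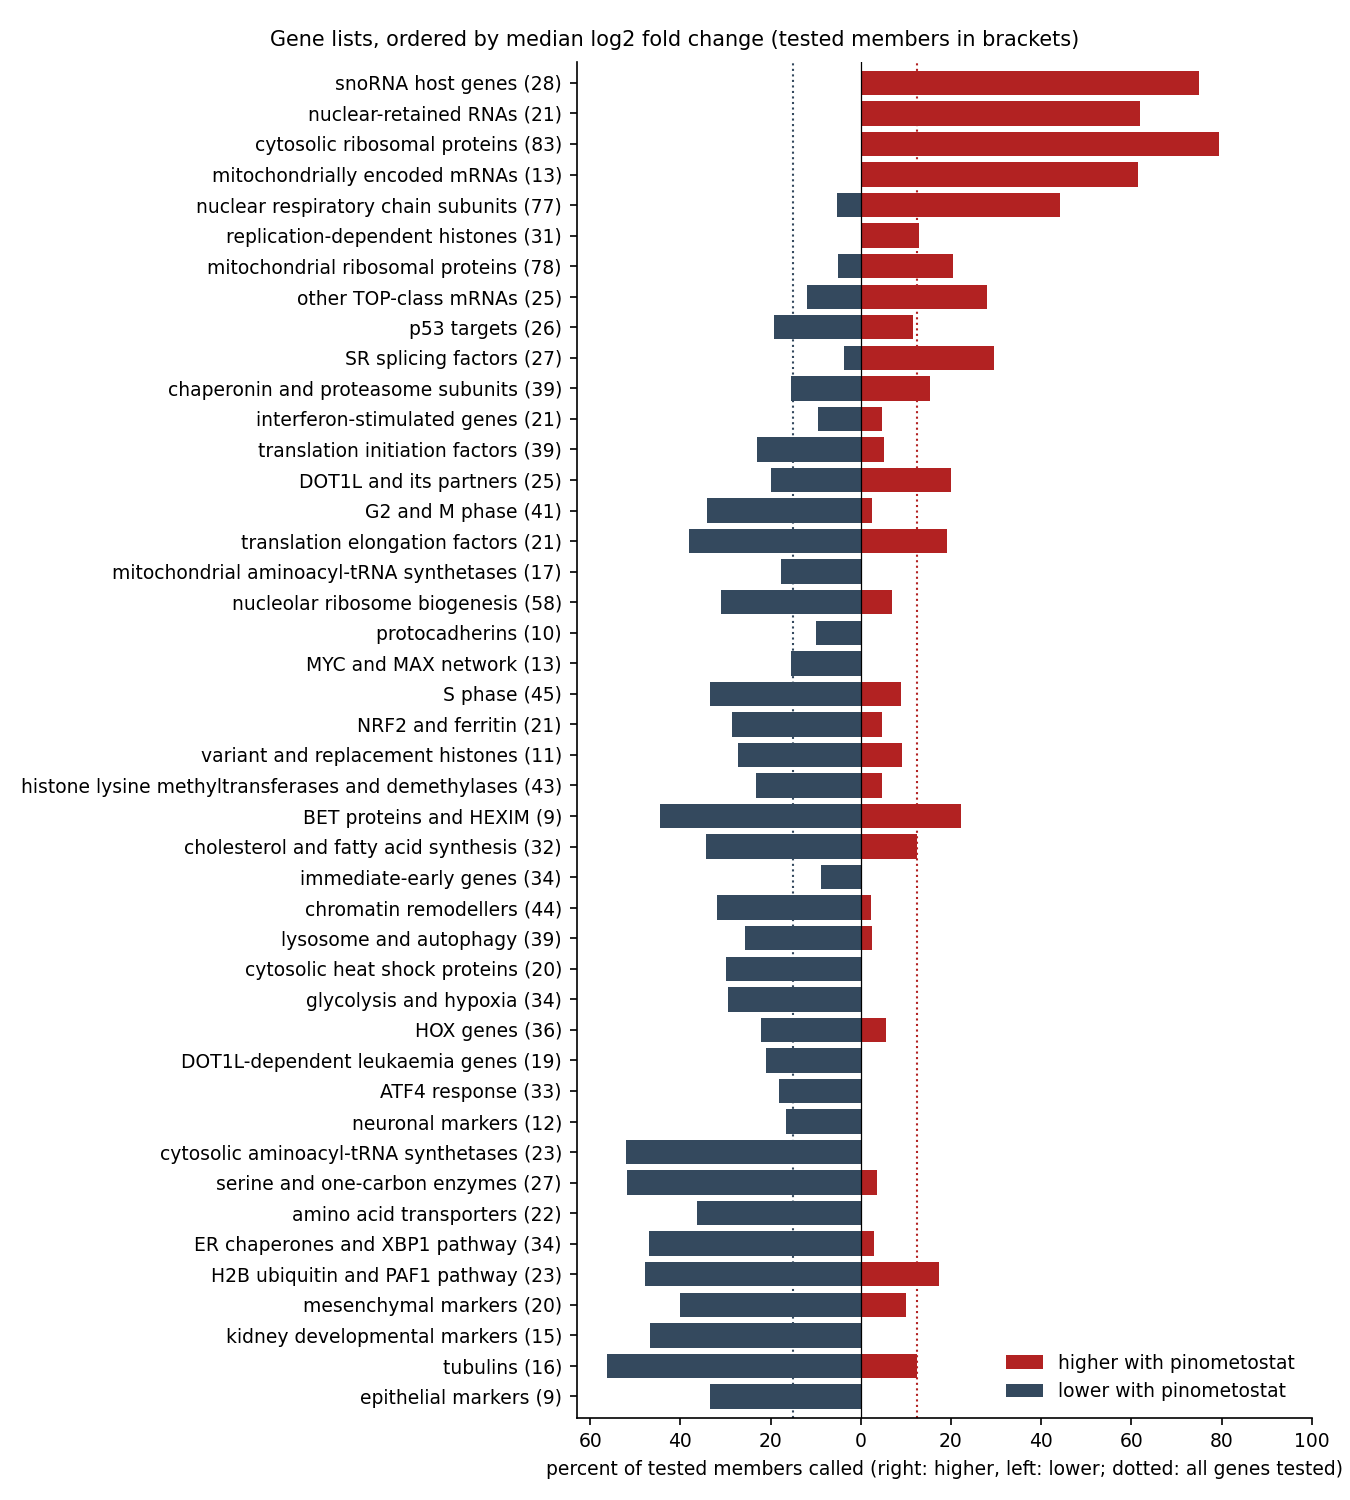
For each gene list with at least 9 tested members, the bars give the percent of tested members called higher (right) and lower (left) with pinometostat, ordered by median log2 fold change, with the number tested in brackets. Dotted lines mark all genes tested (12.5% higher, 15.1% lower); snoRNA host genes, nuclear-retained RNAs and cytosolic ribosomal proteins stand at the top with no member called lower, and tubulins and synthetases near the bottom.

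DOT1L itself (ENSG00000104885, chromosome 19), the enzyme that pinometostat inhibits, had 69.2, 83.1, 59.9 and 80.2 CPM with pinometostat against 112, 94.8, 86.8 and 65.1 CPM with DMSO. DMSO replicates 1, 2 and 3 were above all pinometostat libraries and replicate 4 lay among them (-0.29 ± 0.14, adjusted p = 0.122); the difference was called without DMSO replicate 4 (-0.42, adjusted p = 0.00612) and with no low-count filter (adjusted p = 0.011). A level of DOT1L mRNA does not measure the enzyme's activity, and H3 methylation was not analysed here. Of 25 genes for DOT1L and its partners, 5 rose (20%, against 12.5% of all genes) and 5 fell (20%, against 15.1%), with a median of -0.03. There were 3 of each after GC removal and 3 rises without pinometostat replicate 1 or DMSO replicate 1 or 3. MEN1, the menin subunit of MLL complexes, changed by -0.56 ± 0.10 (adjusted p = 0.00117) and MLLT1, a reader of acetylated histones in the super elongation complex, by -0.49 ± 0.11 (adjusted p = 0.00439), the MLLT1 call being lost after GC removal (adjusted p = 0.0558). CCNT2, a cyclin of the elongation kinase P-TEFb, had 45.9, 42.8, 45.6 and 42.7 CPM with pinometostat against 32.2, 32.2, 30.8 and 35.6 CPM with DMSO, without overlap (0.44 ± 0.08, adjusted p = 0.00199).

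Of 19 genes known to depend on DOT1L in MLL-rearranged leukaemia, 4 fell and 0 rose, with a median of -0.20; these are 21.1% of the list, near the 15.1% of all genes called lower. HOXA9, a homeobox factor central to that leukaemia, had 39.5, 36.7, 39.0 and 37.4 CPM with pinometostat against 40.1, 45.4, 43.2 and 45.0 CPM with DMSO. The ranges did not overlap, by a margin under 1 CPM, and HOXA9 was not called (-0.19 ± 0.08, adjusted p = 0.0943); it was called with library quality weights (adjusted p = 0.03) and on the TPM scale (0.00877). Its neighbour HOXA10 had 38.1, 43.6, 40.4 and 38.3 CPM with pinometostat against 52.0, 47.6, 50.2 and 53.4 CPM with DMSO (-0.34 ± 0.08, adjusted p = 0.00735). HOXA11 had 19.9, 20.2, 17.7 and 19.3 CPM with pinometostat against 25.4, 24.5, 27.0 and 26.8 CPM with DMSO (-0.42 ± 0.09, adjusted p = 0.0035; 0.0679 with all 16 libraries). Both HOXA10 and HOXA11 were apart between the groups. MEIS1, the cofactor of HOXA9, had 15.01, 14.8, 14.1 and 15.9 CPM with pinometostat against 16.4, 16.3, 14.4 and 16.5 CPM with DMSO, with overlap (-0.09 ± 0.10, adjusted p = 0.53). Over the whole HOX family, 8 of 36 tested fell (22.2%, against 15.1% of all genes) and 2 rose (5.56%, against 12.5%), HOXD10 and HOXD4. After GC removal 6 fell and 3 rose, and with all 16 libraries 2 fell and 1 rose.

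The pathway that places ubiquitin on H2B and the elongation complexes that travel with it had 11 falls and 4 rises among 23 (median -0.27), with 9 to 12 falls when 1 library was left out and 2 rises without DMSO replicate 1. NELFA, a subunit of the factor that pauses RNA polymerase II, had 58.9, 60.3, 58.1 and 65.1 CPM with pinometostat against 115, 107, 97.7 and 83.5 CPM with DMSO, well apart (-0.73 ± 0.10, adjusted p = 0.000552). RNF20, the ubiquitin ligase for H2B, changed by -0.46 ± 0.09 (adjusted p = 0.00193; 0.0945 with all 16 libraries), as did SUPT16H, a subunit of the FACT histone chaperone, by -0.46. HEXIM1, the inhibitor of P-TEFb and a marker of BET inhibition, was not called (-0.12 ± 0.11, adjusted p = 0.402). Among 44 chromatin remodellers 14 fell (31.8%, against 15.1% of all genes) and 1 rose (2.27%, against 12.5%). SMARCA4, an ATPase of the SWI/SNF complex, had 175, 200.5, 150.2 and 220.2 CPM with pinometostat against 395, 283, 269.9 and 229 CPM with DMSO; the gap between the groups was narrow beside the DMSO spread (-0.66 ± 0.14, adjusted p = 0.0045; 0.0786 with all 16 libraries).

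The 15 largest falls among called genes with a mean of at least 5 CPM and no overlap between groups ran from -1.002 to -0.76 and were all protein-coding, with a median GC content of 62.0%. All 15 were also called with all 16 libraries and after GC removal. HSPA2, a testis-enriched HSP70, had 4.29, 10.8, 10.5 and 8.56 CPM with pinometostat against 23.7, 16.7, 16.8 and 11.2 CPM with DMSO (-1.002 ± 0.24, adjusted p = 0.0069). TUBB4A, a neuronal beta-tubulin, had 33.3, 39.1, 33.3 and 44.1 CPM with pinometostat against 81.6, 69.3, 67.0 and 54.2 CPM with DMSO (-0.86 ± 0.12, adjusted p = 0.000646). JUP, the plakoglobin of desmosomes and adherens junctions, had 41.3, 39.3, 36.8 and 44.7 CPM with pinometostat against 85.3, 75.5, 62.6 and 60.9 CPM with DMSO (-0.81 ± 0.11, adjusted p = 0.000552). Separate groups were a condition of this list. In 14 of the 15 genes DMSO replicate 1 was the highest DMSO library, and in all 15 DMSO replicate 4 was the lowest. COL2A1, a fibrillar collagen, changed by -0.80 ± 0.12 (adjusted p = 0.000646), and the rest included LMTK3, ZSWIM4, EFHD1, EEF1A2, MAP1S, WIPF3, CILP2, ATF5, NRGN and RRBP1.

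Tubulins fell in 9 of 16 cases (56.25%, against 15.1% of all genes) and rose in 2 (12.5%, as in all genes). Their median was -0.30, with 6 falls and 0 rises after GC removal. Their rises numbered 1 without pinometostat replicate 2 or DMSO replicate 3 and 0 without pinometostat replicate 1 or 3 or DMSO replicate 1 or 2. Cell cycle genes had more falls than rises: 15 (33.3%) against 4 among 45 S-phase genes and 14 (34.1%) against 1 among 41 genes of G2 and mitosis. Of all genes 15.1% fell and 12.5% rose. With all 16 libraries the falls numbered 7 and 3. Among the G2 and mitosis genes 9 fell without pinometostat replicate 1 or DMSO replicate 1. Without DMSO replicate 4 the S-phase rises numbered 7 and the G2 and mitosis rises 4, and the S-phase rises numbered 2 after GC removal and without pinometostat replicate 1 or 3 or DMSO replicate 1 or 2. MCM2, a subunit of the replicative helicase, had 256, 237, 223 and 261 CPM with pinometostat against 433, 371, 329 and 329 CPM with DMSO, without overlap (-0.58 ± 0.10, adjusted p = 0.00108; 0.0688 with all 16 libraries). PLK1, a mitotic kinase, changed by -0.53 ± 0.10 (adjusted p = 0.00247; 0.23 with all 16 libraries). Glycolytic and hypoxia-induced genes had 10 falls and 0 rises among 34 (median -0.19), 6 falls and 1 rise after GC removal (median -0.08), and 4 rises without pinometostat replicate 1. Among them GPI, the glucose-6-phosphate isomerase, changed by -0.52 ± 0.08 (adjusted p = 0.000853) and HK1, a hexokinase, by -0.59 ± 0.10 (adjusted p = 0.00117). Lysosome and autophagy genes had 10 falls (25.6%) and 1 rise (2.56%) among 39, and 6 falls after GC removal. Among the falls was CTSD, a lysosomal protease, with 47.0, 37.7, 57.4 and 48.8 CPM with pinometostat against 76.9, 75.6, 75.1 and 70.9 CPM with DMSO (-0.65 ± 0.11, adjusted p = 0.000992). Subunits of the proteasome and chaperonin had 6 rises and 6 falls among 39, near the shares of all genes, but the rises numbered 1 after GC removal, 2 without DMSO replicate 1, and 3 without DMSO replicate 2 or pinometostat replicate 1 or 3. The p53 targets had 3 rises (11.5%) and 5 falls (19.2%) among 26, near the shares of all genes. They had 6 rises without DMSO replicate 4 and 1 fall after GC removal. Fewer members than in all genes were called among the interferon-stimulated genes (1 rise and 2 falls among 21) and the immediate-early genes (0 rises and 3 falls among 34), the last with 10 falls without DMSO replicate 4 and 1 after GC removal.

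Base composition and gene type moved with the direction of change across the whole table. Over 16660 genes the log2 fold change had a Spearman correlation of -0.402 with the GC content of the longest transcript, a description across genes that share libraries and are not independent. The 3438 protein-coding genes of lowest GC content (up to 42.04%) had 840 rises and 98 falls, and the 3438 of highest GC content (above 56.9%) had 117 rises and 1320 falls. The median GC content was 41.5% in coding genes that rose, 57.5% in those that fell and 47.6% in those not called. With the GC trend removed, 3140 genes were called, 1573 higher and 1567 lower, and the genes of lowest GC content had 258 rises and 370 falls and those of highest GC content 295 rises and 359 falls. What the GC dependence comes from was not tested.

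Coding genes had 1574 rises and 2489 falls among 13759, whereas long non-coding types had 338 rises and 24 falls among 2082, with a median log2 fold change of 0.25, and 322 rises and 16 falls after GC removal. All pseudogene types together had 153 rises and 8 falls among 773. Zinc-finger genes of chromosome 19 had 56 rises and 13 falls among 210, and zinc-finger genes of other chromosomes 73 rises and 22 falls among 256; after GC removal these counts were 26 and 6, and 40 and 8. The other coding genes of chromosome 19 had 32 rises and 333 falls among 798, and 52 and 132 after GC removal. The strand setting of the authors' counting is not given in the sources used here, so reads of an antisense gene and of its partner may not be separable.

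**Figure D4:**
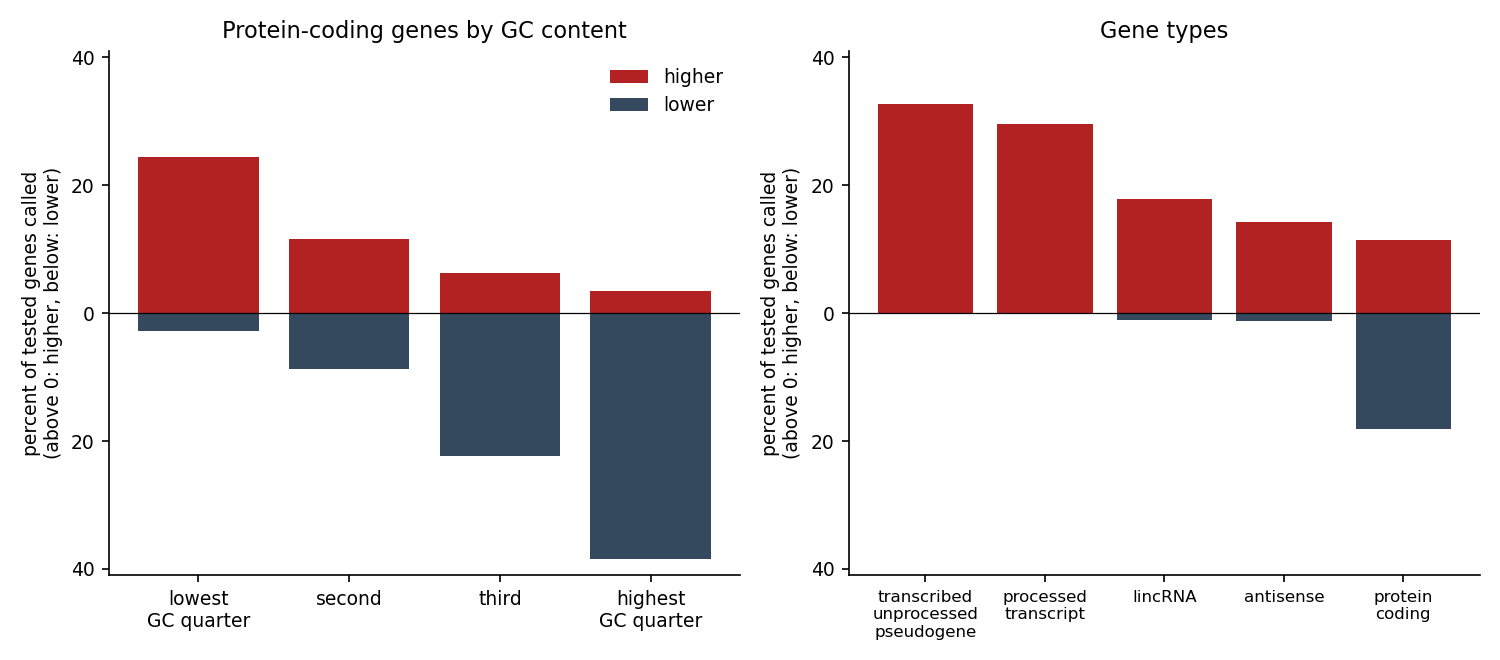
Percent of tested genes called higher (red, above 0) and lower (dark blue, below 0) with pinometostat, for protein-coding genes in 4 equal bins of GC content (left) and for gene types (right). From the lowest to the highest GC bin the rises go down and the falls go up, and the non-coding types have almost no falls.

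Set directly against the other groups in a fit of all 16 libraries, which tested 17306 genes, pinometostat differed from JQ1 in 5919 genes (34.2%), 3004 higher and 2915 lower. The compounds differ in target, and the doses (2.5 and 1 µM) and times (24 and 3 h) differ as well. Pinometostat H2A cells differed from E92K cells in 61 genes (0.352%), 32 higher and 29 lower, and 3009 genes had an unadjusted p below 0.05. These groups differ both in the H2A gene and in the compound. The same fit called 1419 genes between pinometostat and DMSO, against 4610 in the main fit, so the 61 compare with the 1419. The E92K libraries were uneven, with 3.77% to 7.45% of counts from the mitochondrial genome, against 4.43% to 5.04% with pinometostat. The part of this spread in the low count was not tested, and the count does not show that the groups were alike. Of the 249 called genes that the naming rule or the lists name, 9 were among the 61. RPL26 (0.66, adjusted p = 0.0409), RPS12 (0.74, adjusted p = 0.0249) and RPS27 (0.80, adjusted p = 0.0277) were higher in pinometostat H2A cells than in E92K cells. PHGDH (-0.55, adjusted p = 0.0317), GARS (-0.65, adjusted p = 0.0409), BAG3 (-0.61, adjusted p = 0.0249) and HOXA10 (-0.44, adjusted p = 0.0485) were lower. AARS (-0.56, adjusted p = 0.0514) and EEF1A2 (-0.55, adjusted p = 0.0624) missed the threshold, which does not show that the groups were alike. EFHD1 and WIPF3, from the largest falls, complete the 9. HEXIM1 was lower with pinometostat than with JQ1 by 2.19 on the log2 scale (-2.19, adjusted p = 2.66e-07).

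The share of counts from ribosomal protein mRNAs, 19.4% to 20.5% in the pinometostat libraries, lay above every other library of the study, with 14.6% to 16.7% in JQ1 libraries and 14.4% to 18.5% in E92K libraries. The snoRNA host genes took 0.393% to 0.468% of counts with pinometostat, against 0.269% to 0.301% with JQ1, 0.296% to 0.371% in E92K cells and 0.252% to 0.305% with DMSO. For long non-coding types without XIST the pinometostat range of 1.09% to 1.24% overlapped that of the E92K libraries (0.959% to 1.13%) and lay above those of JQ1 (0.830% to 1.03%) and DMSO (0.911% to 0.999%).

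**Figure D5:**
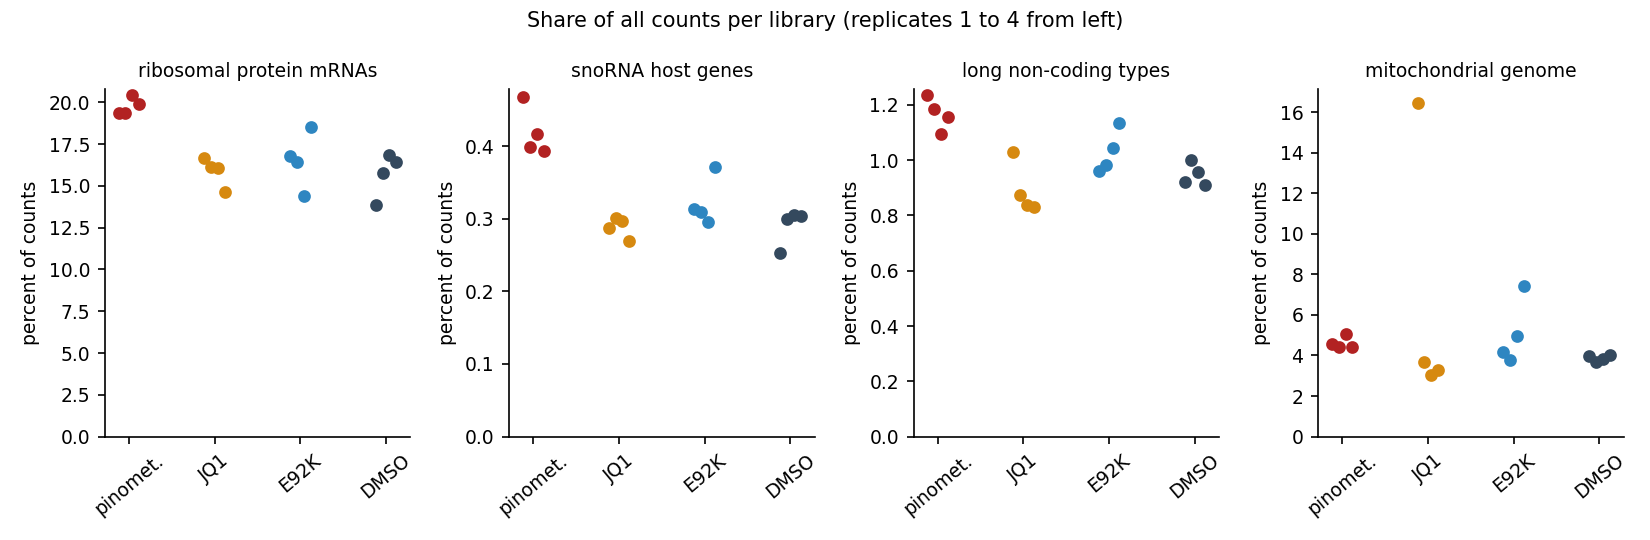
Percent of all counts per library taken by ribosomal protein mRNAs, snoRNA host genes, long non-coding gene types and the mitochondrial genome, with 1 point per library (n = 4 per group) for pinometostat, JQ1, E92K and DMSO from left to right. The pinometostat libraries are the highest in the first pair of panels, and in the last panel JQ1 replicate 1 stands at 16.5%.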

How the data were processed

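Total RNA of HEK293T cells was sequenced, 16 libraries in 4 groups of 4. The authors deposited raw counts per gene and TPM values (transcript abundance per length and library) for 57500 genes. No label or header names the aligner, counter, strand setting or genome build, which are therefore not given in the sources used here. Gene positions of the deposited tables equal those of GENCODE release 29 (GRCh38) for 54784 of 56898 shared gene IDs, and gene type and GC content came from that release. The series and per-library count tables held equal values in 920000 of 920000 cells, and no replicate pair agreed within sampling noise. In the 8 libraries compared, 20540965 to 27599686 counts limit the precision.

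Counts of the 8 libraries were filtered with filterByExpr (minimum count 10, minimum total 15), scaled by TMM and tested with edgeR 4.0.16 (R 4.3.3; glmQLFit and glmQLFTest, group as the term, 6 residual degrees of freedom), with Benjamini-Hochberg adjustment over 16721 genes. CPM values use the TMM-scaled library sizes, except the sums of marker lists and the counts of markers at 1 CPM or more. Those use total counts without TMM and include markers below the low-count filter. Every adjusted p in the text comes from this test unless another tool is named. Direct comparisons with JQ1 and E92K, and values "with all 16 libraries", come from 1 edgeR fit of the 4 groups. The alternatives were DESeq2 1.42.0, limma-voom and quality weights (limma 3.58.1), limma on log2(TPM + 1), other scalings and filters, a replicate block, leaving out each library, a length trend, and a GC trend, the last chosen after seeing the data. On simulated counts for 16511 genes, with known changes of 1.5-fold in 67, 2-fold in 67 and 4-fold in 66 of them, edgeR recovered 70.1% of 1.5-fold, 82.1% of 2-fold and 95.5% of 4-fold changes, with 10 false calls.

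Genes are named as the 15 largest rises and 15 largest falls among those called with a mean of at least 5 CPM and no overlap between groups, as RPL26, EEF1A2, AARS, EEF1A1, DOT1L, HOXA9 and MEIS1, and as up to 6 members of each list with the smallest adjusted p or as examples of a count. XIST and chromosome Y genes were left out, and a few genes that the rule names are not reported here. The genes and lists were chosen with earlier results of these data known. Promoter windows (RefSeq, GRCh38.p14, 250 bases before to 50 after the start) were matched by symbol for 12006 of the genes tested.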

Additional observations from a re-analysis of the deposited data

Results flagged for a closer look

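Of 128 groups of 4 libraries over the genes given per library, 7 held a library that stood apart from the other 3 by Dixon's test at the 95% level, and chance flags about 1 in 20 groups. In the pinometostat group, RPL26 was lowest in replicate 4, at 1537 CPM against 1715 to 1732 in the others, and that library was still above every DMSO library. TRIB3 was highest in replicate 1, at 44.52 CPM against 23.12 to 25.06. PLK1 was lowest in replicate 1, at 115.4 CPM against 144.2 to 149.5. NCL was lowest in replicate 3, at 538.9 CPM against 624.1 to 636. In the DMSO group, VARS was highest in replicate 1, at 207 CPM against 157 to 164.1. SNHG12 was lowest in replicate 4, at 7.166 CPM against 7.838 to 7.957. MEIS1 was lowest in replicate 3, at 14.37 CPM against 16.27 to 16.46.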

How the results depend on the processing

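The count of 4610 genes called was 1419 (626 higher, 793 lower) when all 16 libraries were fitted together, where list members called numbered 164 in place of 495 and named genes called 145 in place of 249; all 1408 genes called in both fits had the same direction. At an adjusted p below 0.01 there were 2022 calls (816 higher, 1206 lower) and 271 list members. GC removal left 1567 falls, and limma on log2(TPM + 1) gave 1000 rises. Leaving out 1 library at a time gave 3162 (without DMSO replicate 1) to 5550 calls (without DMSO replicate 4), 1393 to 2582 higher, 1769 to 2968 lower, 371 to 594 list members and 224 to 246 named genes. Pairing by replicate number was not seen: the correlations of same-numbered libraries were -0.065, 0.165, 0.088 and -0.240, and not every library correlated best with its own number. This check cannot exclude a shared culture or day. The replicate block gave 4007 calls and 1 of the 249 named calls was lost. Of those 249, 121 kept their call under every one of the 22 alternatives, and 68 lost it after GC removal. The median of 8 of the 45 lists changed sign under at least 1 alternative, all with medians between -0.06 and 0.10: besides the initiation factors, SR splicing factors, proteasome and chaperonin, interferon-stimulated genes and mitochondrial synthetases, these were the DOT1L partners (0.0228 with upper quartile scaling), the G2 and mitosis genes (0.0071 with it) and the p53 targets (-0.0114 on log2(TPM + 1)). Among single genes, signs turned for PCDH9 (-0.0477) and PCDH1 (0.0038) after GC removal, RPL3 (0.002 with upper quartile scaling, 0.0697 after GC removal) and MALAT1 (0.0122 with quality weights, and -0.2567 to 0.1103 over the left-out libraries, the highest without DMSO replicate 1), and the cause was not tested. Depth limits genes of low level: 16721 of 57500 genes had enough counts to be tested.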
